A study of Homo sapiens with 13 samples.

Results

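A library from cells given siRNA against BRCA2 was compared with a control siRNA library in LNCaP-abl, a prostate cancer line that was derived from LNCaP and grows without androgen. The pair was chosen by the siRNA named in the labels, and it makes up 2 of the 13 RNA sequencing libraries of the series. Cells grown in medium with charcoal-stripped serum, which is depleted of steroid hormones, were transfected with a pool of siRNAs against BRCA2 (siBRCA2) or with control siRNAs (siControl2) and harvested after 72 h. The remaining 11 libraries, each a knockdown of another factor, were used only to show how far a gene varied between libraries, and all 12 knockdowns share the 1 control library. Every group had 1 library, so no value below carries a replicate error and no gene was tested. The labels give no batch or date, and differences describe these libraries only. In 1 of the other 11, the library labelled siMALAT1, the targeted transcript was not below the control (21.7 against 16.4 FPKM), and the closing section gives the values without it. The level of PCAT1 in the library labelled siPCAT1 was not checked.

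BRCA2 is a tumour suppressor that acts in homologous recombination, the repair of double-strand breaks by copying an intact sequence, and protects stalled replication forks. It is brought to damage by PALB2 and BRCA1, and its transcription is highest in S and G2 phase. Inherited and acquired loss of BRCA2 is known in aggressive prostate cancer and makes cells sensitive to inhibitors of PARP1, an enzyme that senses single-strand breaks.

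The level of BRCA2 itself was checked first. BRCA2 was at 1.23 FPKM in siBRCA2 and at 3.25 FPKM in siControl2, where FPKM gives sequenced fragments relative to transcript length and to all mapped fragments. Over the other 11 knockdowns it ranged from 0.288 to 2.71 FPKM with a median of 0.850. The difference between siBRCA2 and siControl2 was -0.93 on the log2(FPKM + 1) scale, on which all differences below are given, and on which low genes show too small a change. BRCA2 was thus lower in siBRCA2 than in the control, but 8 libraries with other siRNAs were lower still. In these 8 libraries the genes of S phase entry and DNA replication (G1/S genes) were also far below the control, with list medians from -1.17 to -2.18. In siBRCA2 the G1/S median was -0.43. Since BRCA2 is a low gene, it was set against the G1/S genes as plain FPKM ratios. On that scale BRCA2 was at a log2 ratio of -1.40 in siBRCA2 and the G1/S median at -0.45, so that BRCA2 minus the G1/S median was -0.95. This was not particular to siBRCA2, since BRCA2 was below the G1/S median of the same library in 9 of 12 knockdowns, with -1.02 in siFOXA1, -0.94 in siCTCF and -0.87 in siFOXM1. On the log2(FPKM + 1) scale, the same difference was -0.50 in siBRCA2 and 0.045 to 0.50 in the other 11, so its sign in other libraries turned with the scale. The knockdowns with the nearest G1/S medians, siEED (-0.29) and siBRCA1 (-0.71), had BRCA2 at 2.71 and 2.41 FPKM. These comparisons were chosen after the data were seen and were not tested.

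**Figure D1:**
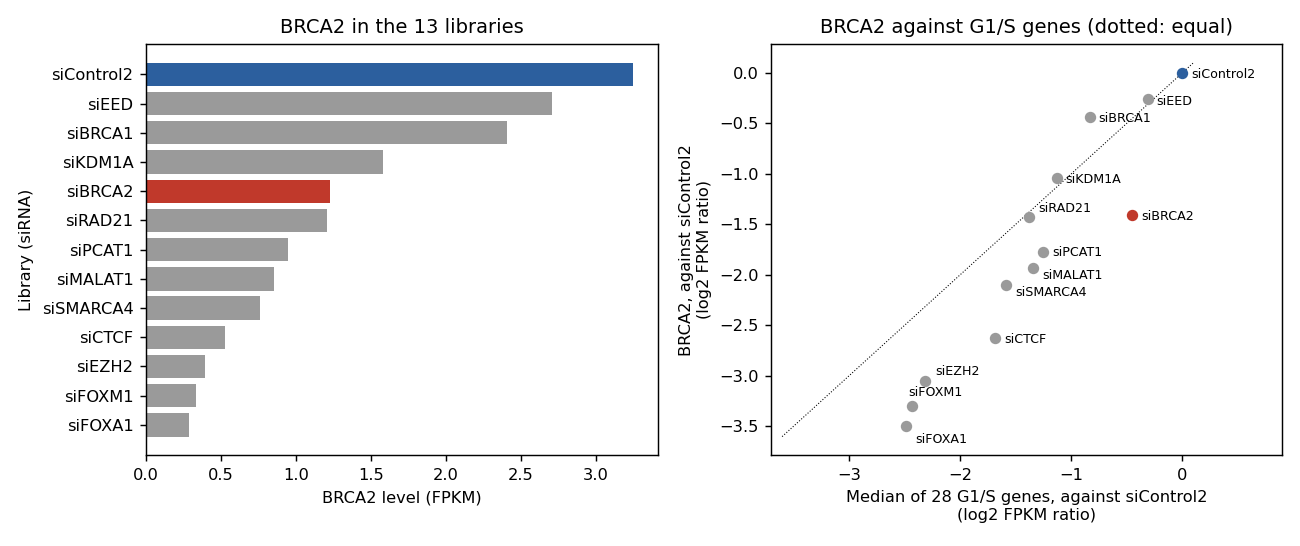
BRCA2 level in FPKM in each of the 13 libraries (bars, left), and the BRCA2 log2 FPKM ratio to siControl2 plotted against the median log2 FPKM ratio of 28 G1/S genes, with 1 point per library (right; dotted line, equal ratios). siBRCA2 (red) is at 1.23 FPKM against 3.25 in siControl2 (blue), and it lies below the dotted line, as do other knockdowns such as siFOXA1 and siCTCF.

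After removal of entries whose symbols name the small RNA classes searched for, and of genes with a mean below 0.5 FPKM over the 13 libraries, 15780 genes remained. Of these, 121 were at least 2-fold higher in siBRCA2 than in siControl2 (0.767% of genes) and 120 were at least 2-fold lower (0.76%). At a limit of 1.5-fold, 503 genes were higher (3.19%) and 637 were lower (4.04%). The number of genes 2-fold from the control ran from 220 to 1221 in the other 11 knockdowns. Many of the entries 2-fold from the control had no gene name that could be used here, or were antisense, read-through or pseudogene entries, and 69 of the higher and 62 of the lower genes had a usable symbol. Against the median of the other 11 knockdowns, 40 of the 121 higher genes and 43 of the 120 lower genes were also 2-fold away in the same direction. Depth is unknown, since the files hold no counts.

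The cells carried the markers of luminal prostate epithelium in both libraries. The luminal keratin gene KRT18 was at 156 FPKM in siBRCA2 and 136 in siControl2. The androgen-induced kallikrein KLK3, which encodes prostate-specific antigen, was near 0 in every library, at 0.361 FPKM in siBRCA2 and 0.0513 in siControl2. Markers of other cell types were low in both libraries. The FPKM of 9 listed basal genes summed to 32.8 in siBRCA2 and 26.3 in siControl2, that of 8 stromal genes to 11.1 and 12.6, and that of 5 immune and endothelial genes to 11.9 and 10.3. For 10 listed neuroendocrine genes the sums were 51.4 and 69.3, most of it ENO2, a neuronal enolase found in many tumour lines, at 37.6 and 54.6 FPKM. These sums also hold REST, a repressor of neuronal genes and not a marker of such cells, at 10.0 and 10.3 FPKM. The basal keratin KRT17 and the globin gene HBB were listed at 0 in both.

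The largest increases with a usable symbol were mostly genes induced by interferon, the antiviral signal that acts through transcription factors such as STAT2 and IRF9. IFI6, a mitochondrial interferon-induced protein, was at 95.0 FPKM in siBRCA2 and 5.65 in siControl2, a difference of 3.85. OASL, a relative of the 2′-5′ oligoadenylate synthetases, was at 19.8 against 0.831 FPKM (3.51). IFIT1, which binds foreign RNA ends, was at 23.8 against 2.10 FPKM (3.0). The antiviral enzyme gene RSAD2 was at 13 against 0.967 FPKM (2.83), and the ubiquitin-like modifier gene ISG15 at 96.7 against 14.6 FPKM (2.65). IFI27, IFIT2 and IFIT3 were higher by 2.80, 2.62 and 1.90. RARRES3, a phospholipase gene that is also known to respond to interferon, was higher by 2.18. These genes made up 9 of the 15 largest increases.

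Of 31 interferon-stimulated genes kept from a list of 34, 12 were at least 2-fold higher and 15 at least 1.5-fold higher, against 0.767% and 3.19% of all genes, and 0 were 1.5-fold lower. By any amount, 29 of the 31 were above the control, against 51.5% of all genes. Their median difference was 0.58, beside 0.0096 over all genes. The increase was uneven within the list. The OAS1 gene was higher by 1.58, IFI44 by 1.55, the tetherin gene BST2 by 1.37 and the RNA sensor gene DDX58 by 0.95. CXCL10, a chemokine gene listed at 0 in siControl2, reached 1.14 FPKM. Signalling factors of this pathway differed less, with IRF9 at 6.64 against 4.28 (0.53) and STAT2 at 14.7 against 14.9 (-0.019). MX1, an antiviral GTPase, was at 0.605 against 1.15 FPKM (-0.42) and, like STAT2, was lower in siBRCA2 than in any other library. These 2 of 31 compare with 8.57% of all genes lowest among the 12 knockdowns and 8.17% lowest among all 13 libraries. Genes for the ligands were near 0. The interferon lambda gene IFNL1 was at 0.408 FPKM in siBRCA2 and 0.0145 in siControl2, and the interferon beta gene IFNB1 at 0.295 and 0.0870.

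In all 12 knockdowns the median of the interferon-stimulated genes was above the control, with the smallest at 0.16 in siEED. For IFI6, OASL, IFIT1, RSAD2, IFI27, ISG15, IFIT2 and RARRES3, siControl2 was the lowest of the 13 libraries. By list median siBRCA2 (0.58) came after siFOXM1 and siFOXA1 and was nearly level with siRAD21 (0.57). Both siBRCA2 and siRAD21 had 15 genes at least 1.5-fold higher, while 12 and 7 were at least 2-fold higher. For IFI6 the other 11 knockdowns ranged from 7.35 to 622 FPKM with a median of 27.4, and for ISG15 from 15.6 to 595 with a median of 29.1. At 18 of the 31 genes, siFOXA1 and siFOXM1 were above siBRCA2 and the remaining 9 knockdowns were below it. The list median was 0.59 above the median of the other 11 knockdowns, gene by gene, and 24 of the 31 genes were higher than it. RSAD2 stood out most in this respect, at 2.31 above the median of the other knockdowns, which was 1.82 FPKM. Of 15 other genes of cytosolic nucleic acid sensing, kept from a list of 18 that does not hold the interferon-induced sensors DDX58 and IFIH1 (3.90 against 3.12 FPKM, 0.25), 0 were 1.5-fold higher and 2 were 1.5-fold lower, the RNA-editing enzyme gene ADAR (-0.65) and RNASEH2A (-0.64), which encodes the catalytic subunit of ribonuclease H2. The 1.5-fold shares of all genes were 3.19% higher and 4.04% lower. RNASEH2A was at 22.9 FPKM, above the other knockdowns' median of 14.4.

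**Figure D2:**
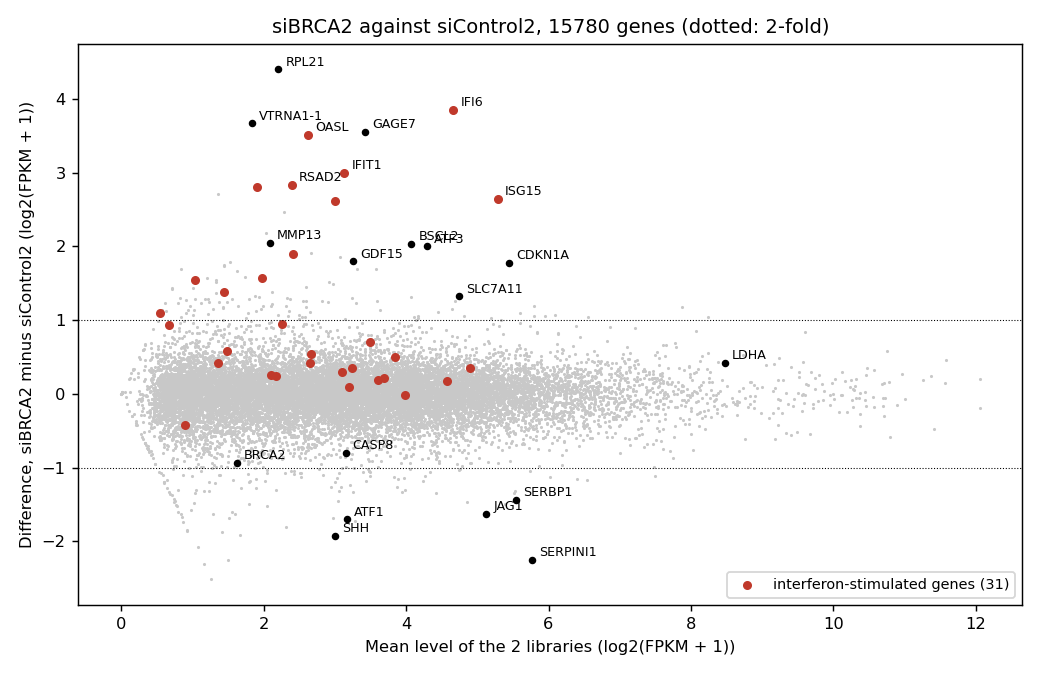
Difference between siBRCA2 and siControl2 (vertical axis) against the mean level in the 2 libraries (horizontal axis), both in log2(FPKM + 1), for 15780 genes, with the 31 interferon-stimulated genes in red. IFI6, OASL and IFIT1 stand at 3.85, 3.51 and 3.0, and SERPINI1 is the lowest labelled gene at -2.25.

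The promoters of 4 of the interferon genes with large increases are shown, chosen because they hold the element through which STAT2 and IRF9 are known to act. The motif searched was GAAA, then any 2 bases, then GAAA, on either strand, in the 250 bases before the start site as given by RefSeq on build GRCh38.p14, where overlapping matches count separately. It was found in 13 of the 25 listed genes with a promoter in that table (52.0%) and in 3.07% of all 27305 promoters. Among listed genes at least 2-fold higher in siBRCA2, 8 of 10 with a promoter held it. Among those not 1.5-fold higher, 4 of 13 did. A match describes letters in this window and is not a measured binding site. The 90 bases around the matches follow, 5′ to 3′ on the strand of the gene, with matches in capitals.
IFI6, chr1:27672267-27672356, minus strand: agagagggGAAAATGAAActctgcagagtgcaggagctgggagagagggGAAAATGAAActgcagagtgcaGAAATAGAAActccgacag
IFIT1, chr10:89392474-89392563, plus strand: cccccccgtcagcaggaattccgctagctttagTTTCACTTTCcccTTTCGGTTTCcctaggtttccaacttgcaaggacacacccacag
ISG15, chr1:1013347-1013436, plus strand: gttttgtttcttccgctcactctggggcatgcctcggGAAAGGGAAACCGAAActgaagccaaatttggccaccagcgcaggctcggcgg
IFI27, chr14:94110595-94110684, plus strand: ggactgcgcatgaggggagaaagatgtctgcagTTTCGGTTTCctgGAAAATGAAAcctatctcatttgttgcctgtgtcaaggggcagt
IFI6 held 3 matches, and the other 3 genes held 2 each. No match was found for RSAD2 in this window.

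For genes of hypoxia and glycolysis, the list median of siBRCA2 lay above those of all other 11 knockdowns. Under low oxygen the HIF factors raise glucose uptake and its conversion to lactate, and the same genes are active in many tumours at normal oxygen. LDHA, which encodes lactate dehydrogenase A, was at 411 FPKM in siBRCA2 and 306 in siControl2 (0.42), while the other 11 knockdowns ranged from 48.6 to 279.6 FPKM with a median of 183. No other library reached the siBRCA2 level. The stress-induced gene NDRG1 was at 50.6 against 25.8 FPKM (0.94) and at 15.2 to 49.1 in the other knockdowns. PFKFB3, whose product activates glycolysis, was at 4.85 against 2.13 FPKM (0.90), and the angiogenic factor gene VEGFA at 35.4 against 20.9 (0.73). Both were above all other 12 libraries. The same held for the glucose transporter gene SLC2A1 (0.59), the pyruvate dehydrogenase kinase gene PDK1 (0.56), BNIP3 (0.42), PGK1 (0.32) and ENO1 (0.12). The hexokinase gene HK2 was higher by 0.71 and the histone demethylase gene KDM3A by 0.61, each exceeded in 1 other knockdown.

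Of the 18 genes kept from a list of 20, 7 were at least 1.5-fold higher than in siControl2 and 0 were 1.5-fold lower, against 3.19% and 4.04% of all genes. None reached 2-fold. In 12 of the 18, siBRCA2 was the highest of all 13 libraries, against 7.64% of all genes. All 18 exceeded the median of the other 11 knockdowns. The list median was 0.46, while the medians in the other 11 knockdowns ran from -0.38 in siEZH2 to 0.099 in siEED. CA9, a carbonic anhydrase gene that is a common marker of hypoxia, fell below the filter on low values and was at 1.75 FPKM in siBRCA2 and 0.742 in siControl2, again the highest of 13 libraries. ADM, the adrenomedullin gene, went the other way at 1.04 against 1.18 FPKM (-0.091). The listed genes share a pathway and are not independent of each other. Glycerol-3-phosphate dehydrogenase GPD2, which passes electrons from glycolysis to the respiratory chain, was not on the list and was at 27.7 against 18.9 FPKM, also above all other libraries.

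The promoters of 4 of these genes are shown because HIF factors are known to bind sites with the core ACGTG. This core was searched on both strands in the same 250 bases, where a CACGTG counts once on each strand. It was present in 8 of 16 listed genes with a promoter (50.0%) and in 18.7% of all promoters. It did not follow the size of the difference, since 2 of 5 genes at least 1.5-fold higher and 6 of 11 others held it.
LDHA, chr11:18394441-18394530, plus strand: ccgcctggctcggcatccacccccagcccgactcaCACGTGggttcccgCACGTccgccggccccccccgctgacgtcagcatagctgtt
PGK1, chrX:78104013-78104102, plus strand: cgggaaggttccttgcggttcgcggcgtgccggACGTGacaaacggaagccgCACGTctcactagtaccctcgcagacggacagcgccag
ANKRD37, chr4:185396646-185396735, plus strand: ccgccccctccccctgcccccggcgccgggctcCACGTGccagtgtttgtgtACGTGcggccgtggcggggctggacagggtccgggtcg
BNIP3, chr10:131982010-131982099, minus strand: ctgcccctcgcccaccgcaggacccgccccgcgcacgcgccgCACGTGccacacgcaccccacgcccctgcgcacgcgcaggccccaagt
Of these, ANKRD37, a small ankyrin repeat gene, was at 6.10 FPKM in siBRCA2 and 3.65 in siControl2 (0.61), the highest of 13 libraries.

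Genes of the ATF4 and unfolded protein response were also higher. This response slows protein synthesis under amino acid shortage or misfolded protein and induces transporters, amino acid synthesis and the death-promoting factor DDIT3. The cystine transporter gene SLC7A11 was at 41.2 FPKM in siBRCA2 and 15.8 in siControl2 (1.32), and at 9.02 to 32.2 in the other knockdowns, so that siBRCA2 was the highest of all 13. CHAC1, which degrades glutathione, was at 6.88 against 2.19 FPKM (1.31). The chaperone gene DNAJB9 was higher by 1.15, DDIT3 by 1.10 and HERPUD1, which acts in disposal of misfolded proteins, by 1.05. The pseudokinase gene TRIB3 (0.79), the lipoprotein receptor gene VLDLR (0.67) and SLC3A2 (0.54), the partner chain of SLC7A11, were highest in siBRCA2 among all 13 libraries.

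Of all 20 listed genes, 5 were at least 2-fold higher, 10 at least 1.5-fold higher and 0 were 1.5-fold lower, against 0.767%, 3.19% and 4.04% of all genes. The median was 0.57, and the medians of the other 11 knockdowns ran from -0.11 to 0.50. Much of the list was high in other knockdowns too, and the median gap to the other 11 was 0.20. DDIT3 was at 69.5 FPKM in siBRCA2 beside a median of 64.9 in the other knockdowns. ATF4 itself was at 256 against 303 FPKM in siControl2 (-0.24), and the endoplasmic reticulum chaperones HSPA5 and HSP90B1 differed by 0.026 and -0.17. The CARE-type element through which ATF4 is known to act was searched as TGATGNAA and was found in 3 of 19 listed promoters (15.8%) and in 3.19% of all promoters. The 3 genes, all at least 1.5-fold higher, are shown with the match in capitals.
CHAC1, chr15:40953221-40953310, plus strand: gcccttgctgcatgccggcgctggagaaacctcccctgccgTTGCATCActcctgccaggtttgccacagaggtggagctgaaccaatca
ASNS, chr7:97872428-97872517, minus strand: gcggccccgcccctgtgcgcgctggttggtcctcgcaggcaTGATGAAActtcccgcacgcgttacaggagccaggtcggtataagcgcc
HERPUD1, chr16:56931925-56932014, plus strand: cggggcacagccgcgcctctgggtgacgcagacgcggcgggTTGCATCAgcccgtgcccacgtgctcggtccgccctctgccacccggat
ASNS, the asparagine synthetase gene, was at 50.9 against 33.4 FPKM (0.59).

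**Figure D3:**
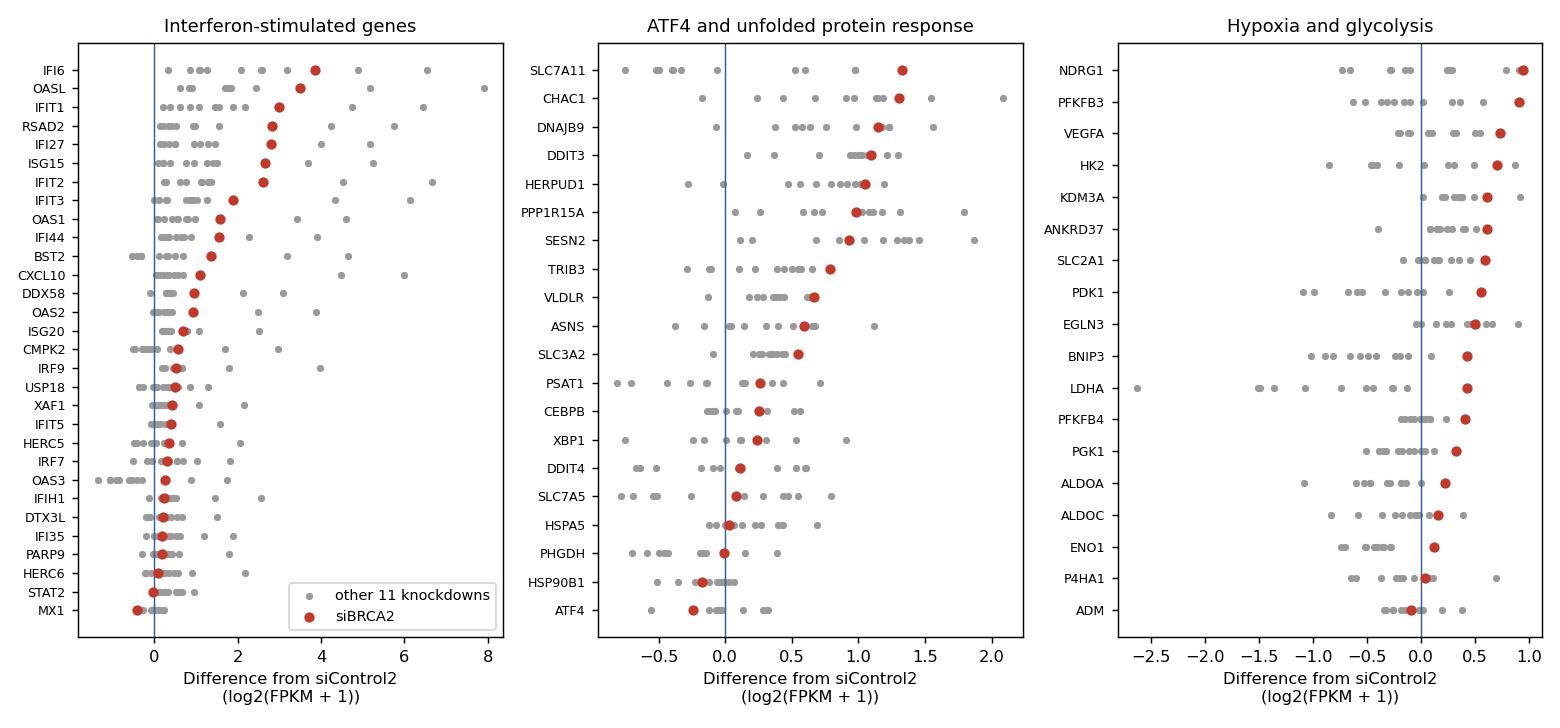
Difference from siControl2 in log2(FPKM + 1) for the genes of 3 lists (1 interferon-stimulated gene is not drawn), with siBRCA2 in red and the other 11 knockdowns in grey. For interferon-stimulated genes 2 grey points usually lie beyond siBRCA2, while for hypoxia and glycolysis genes siBRCA2 is the highest point in 12 of 18 genes.

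Several antioxidant genes were also higher. NQO1, a quinone reductase gene, was at 78.7 FPKM in siBRCA2 and 37.4 in siControl2 (1.05). GCLM, a subunit of the enzyme that makes glutathione, was at 22 against 11.8 FPKM (0.85), and the thioredoxin reductase gene TXNRD1 at 144 against 86.8 (0.72). These 3 genes were above all other 12 libraries. The autophagy receptor gene SQSTM1 was at 359 against 198 FPKM (0.86). GCLC, the catalytic partner of GCLM, was at 52.7 against 49.3 FPKM (0.093), and the other knockdowns had a median of 66.6. The heme oxygenase gene HMOX1 was at 5.65 against 3.72 FPKM (0.50) and below the other knockdowns' median of 6.81. Of 15 oxidative stress and metallothionein genes, SLC7A11 among them, 6 were at least 1.5-fold higher and 0 lower, against 3.19% and 4.04% of all genes, with a median of 0.33. The range of that median over the other 11 knockdowns, -0.34 to 0.70, included it.

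The genes that work with BRCA2 differed little from the control. Of 24 BRCA2 partners and recombination factors kept from a list of 25, 0 were at least 1.5-fold higher and 2 were at least 1.5-fold lower. The shares of all genes were 3.19% and 4.04%. Those were HMG20B, which binds BRCA2 and belongs to a histone demethylase complex (53.8 against 96.5 FPKM, -0.83), and FIGNL1, an ATPase of homologous recombination (23.0 against 39.8 FPKM, -0.77, with a median of 15.3 in the other knockdowns). PALB2 was at 2.90 against 3.65 (-0.25) and BARD1 at 17.9 against 18.3 (-0.030). BRCA1 was at 8.28 against 11.1 FPKM (-0.38). SHFM1, which encodes the small BRCA2-binding protein DSS1, was at 181 against 146 FPKM (0.31). The list median was -0.18, close to the -0.18 of siEED and above the medians of the other 10 knockdowns, which reached -1.13 in siFOXM1. In 12 of the 24 genes, BRCA1 and XRCC3 among them, siBRCA2 was the highest of the 12 knockdowns, against 9.21% of all genes. This was not particular to the list, since it also held for 8 of 28 G1/S genes and 11 of 28 genes of G2/M phase and mitosis.

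Other repair lists gave few differences of 1.5-fold. Of all genes, 3.19% were 1.5-fold higher and 4.04% were 1.5-fold lower. In lists this small, counts of 0 or 1 do not set the repair genes apart from all genes. Of 16 Fanconi anemia genes, 20 fork protection and ATR signalling genes and 23 mismatch and excision repair genes, 0 were 1.5-fold away in either direction. The medians were -0.13, -0.13 and -0.11. Of 18 genes of end resection and break sensing, 1 was 1.5-fold lower, the histone variant gene H2AFX, whose product marks double-strand breaks. It was at 42.8 against 95.0 FPKM (-1.13), but the other knockdowns ranged from 17.3 to 49.1, so that siControl2 was the high library. Of 17 end joining genes, 1 was 1.5-fold lower, XRCC1 (-0.72), the scaffold of single-strand break repair. PARP1 differed by -0.53 and was at 65.8 FPKM, the lowest of 13 libraries, with 68.7 in siRAD21. LIG1, the replicative DNA ligase gene, differed by -0.49 and was at 5.91 FPKM, beside 1.20 to 7.31 in the other knockdowns. POLQ, the polymerase of microhomology-mediated end joining on which BRCA2-deficient cells are known to depend, was at 3.15 FPKM in siBRCA2 and 3.25 in siControl2 (-0.035), and at 0.273 to 2.19 in the other knockdowns. Of 5 kept genes next to BRCA2, 0 were 1.5-fold away. Of 11 siRNA targets of the series, PCAT1 not among them, 2 were at least 1.5-fold lower, BRCA2 itself and SMARCA4, an ATPase that moves nucleosomes (27.9 against 45.1 FPKM, -0.68).

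Cell cycle genes were slightly lower than in siControl2 and higher than in most other knockdowns. Of 28 G1/S genes, 0 were 2-fold lower and 4 were 1.5-fold lower, the replication licensing genes MCM5 (-0.75) and MCM3 (-0.66), the maintenance methylation factor UHRF1 (-0.74) and the ribonucleotide reductase subunit RRM2 (-0.63). Of 28 G2/M genes, 0 were 2-fold lower and 3 were 1.5-fold lower, CENPF (-0.66), CCNB1 (-0.60) and CDC20 (-0.59), which act in kinetochore function, mitotic entry and anaphase onset. Of all genes, 0.76% were 2-fold lower and 4.04% were 1.5-fold lower. CCNB1 was at 48.1 FPKM in siBRCA2 and 73.3 in siControl2, and at 6.79 to 76.2 in the other knockdowns. All of the G1/S genes and 26 of the G2/M genes were below the control by some amount, against 48.5% of all genes. The medians were -0.43 and -0.36, and siEED had the one smaller departure from the control on either list. Against the median of the other 11 knockdowns the direction turned, to 0.83 for G1/S and 1.12 for G2/M genes, and all 28 G2/M and 27 G1/S genes were above it.

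Of 26 p53 target genes, 8 were at least 1.5-fold higher and 2 at least 2-fold higher, against 3.19% and 0.767% of all genes. The growth factor gene GDF15 was at 16.8 FPKM in siBRCA2 and 4.13 in siControl2 (1.80), and the cell cycle inhibitor CDKN1A at 79.7 against 22.5 (1.78). CDKN1A was at 25.0 to 440 FPKM in the other knockdowns with a median of 82.6, so siBRCA2 lay in the middle of them. The nuclease gene AEN (0.84) and GADD45A (0.84) were also higher, while the death receptor gene FAS was lower, at 11 against 19.2 FPKM (-0.75). MDM2, the feedback inhibitor of p53, differed by 0.36 and BAX by 0.30. The list median of 0.29 became -0.017 against the median of the other 11 knockdowns. Of 18 immediate early genes, 6 were 1.5-fold higher, against 3.19% of all genes, led by ATF3 (38.1 against 8.76 FPKM, 2.00) and the phosphatase gene DUSP1 (13.8 against 5.01 FPKM, 1.3). ATF3 was at a median of 37.8 FPKM in the other knockdowns, 0.012 away from siBRCA2.

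**Figure D4:**
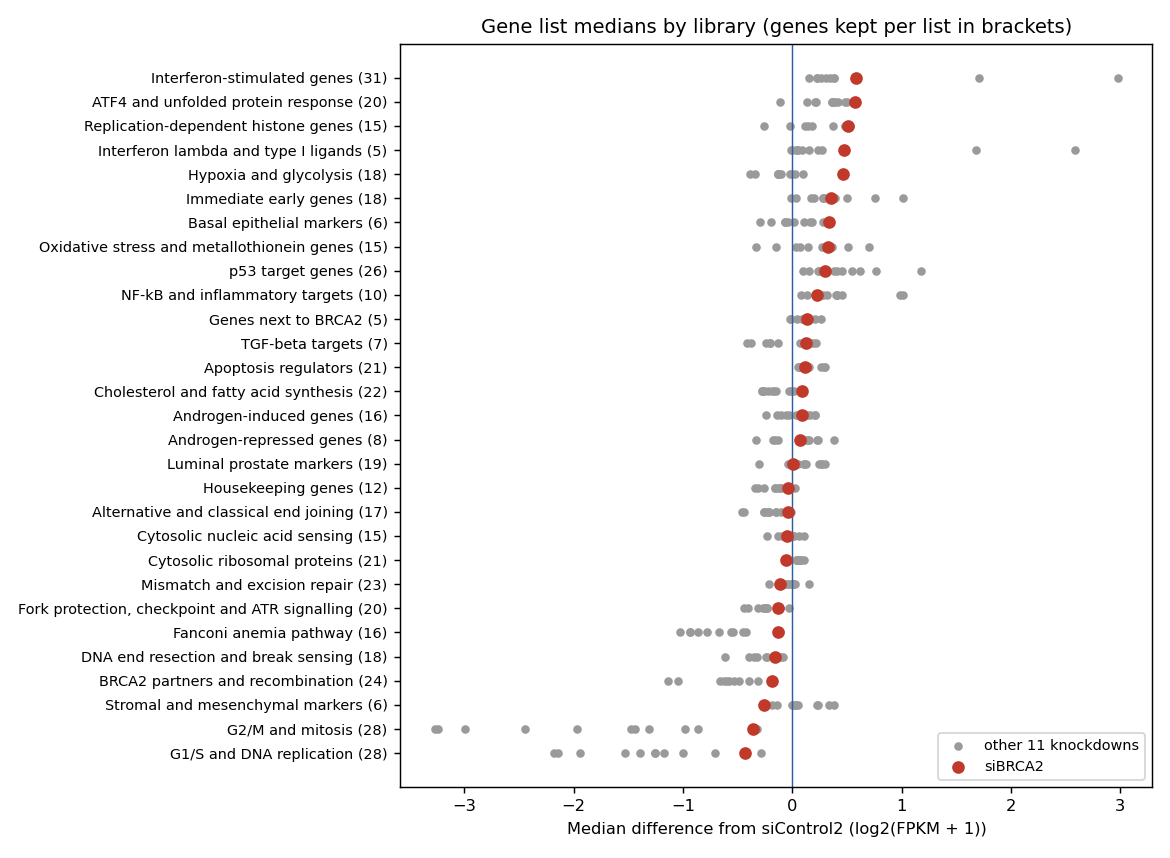
Median difference from siControl2 in log2(FPKM + 1) for each list with at least 5 kept genes (number in brackets), with siBRCA2 in red and the other 11 knockdowns in grey. siBRCA2 is the highest point for hypoxia and glycolysis (0.46), for the ATF4 list (0.57) and for cholesterol and fatty acid synthesis (0.092). For G1/S (-0.43) and G2/M (-0.36) genes siBRCA2 lies below the control, and only siEED lies closer to the control.

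Cholesterol and fatty acid genes also had their highest median of the 12 knockdowns in siBRCA2, at 0.092 beside -0.28 to 0.013 in the others. Only 2 of 22 were 1.5-fold higher, against 3.19% of all genes. These were the sterol carrier gene STARD4 (24.9 against 13.5 FPKM, 0.84) and the synthase gene HMGCS1 (0.59). Replication-dependent histone genes had a median of 0.51, with 5 of 15 at least 1.5-fold higher, against 3.19% of all genes. Other knockdowns were alike in this, with medians of 0.53 in siFOXA1 and 0.49 in siEZH2, siFOXM1, siEED and siRAD21. The linker histone gene HIST1H1E was at 4.36 against 0.554 FPKM (1.79), the highest of 13 libraries, and HIST1H1C at 245 against 154 (0.67). The BMP-responsive inhibitors ID1 (97.9 against 45.9 FPKM, 1.08) and ID3 (39.0 against 15.6 FPKM, 1.26) were both higher. TGF-beta target genes as a list went in both directions. Of 7 kept, 4 were above the control and 3 below it, with a median of 0.12. At 2-fold, 2 were higher and 1 was lower, against 0.767% and 0.76% of all genes. Stromal and mesenchymal genes had a median of -0.26 over 6 genes, the lowest of 12 knockdowns, with 0 past 1.5-fold. Of 21 apoptosis regulators 2 were 1.5-fold higher, the death-promoting PMAIP1 (0.72) and BBC3 (0.65), and 2 were lower, CASP8 (-0.80) and the survival gene BCL2 (0.610 against 1.62 FPKM, -0.70). The shares of all genes were 3.19% and 4.04%. Against the median of the other 11 knockdowns, BBC3 (-0.016) and BCL2 (0.11) turned direction. Of 10 NF-kB targets 1 was 1.5-fold higher, the apoptosis inhibitor gene BIRC3 (0.76), against 3.19% of all genes. Of 21 ribosomal protein genes and 12 housekeeping genes 0 were 1.5-fold away. Beside the shares of all genes, counts of 0, 1 or 2 do not set lists this small apart.

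Genes of the prostate lineage and of androgen response went in both directions. The prostatic acid phosphatase gene ACPP was at 27.7 FPKM in siBRCA2 and 71.8 in siControl2 (-1.34), and the other knockdowns had a median of 68.0. Similar values to siBRCA2 were found in siKDM1A (27.6) and siFOXA1 (28.9). FOXA1, a factor that opens chromatin in luminal cells, was at 91.2 against 137 FPKM (-0.58), lower than in all knockdowns except its own. The metalloreductase gene STEAP1 was at 155 against 215 FPKM (-0.47), the lowest of 13 libraries. The tight junction gene CLDN4 (0.82) and the epithelial factor ELF3 (0.64) were higher. Of 16 kept androgen-induced genes, 1 was 1.5-fold higher, NDRG1, and 1 was lower, ACPP, against 3.19% and 4.04% of all genes. The median was 0.087. Among 8 kept androgen-repressed genes, DDC, an enzyme of dopamine synthesis (-1.11), and the opioid receptor gene OPRK1 (-1.04) were at least 2-fold lower, while the glucuronosyltransferase gene UGT2B11 was higher by 1.28. Of all genes, 0.76% were 2-fold lower and 0.767% were 2-fold higher.

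The largest decrease with a usable symbol was SERPINI1, which encodes neuroserpin, a protease inhibitor of the nervous system. It was at 23.9 FPKM in siBRCA2 and 118 in siControl2, and the other 11 knockdowns ranged from 97.4 to 264 FPKM with a median of 125. The difference from the control was -2.25, and relative to the lowest of the other 12 libraries it was -1.98, with no overlap. ATF1, a transcription factor of the CREB family, was at 4.0 against 15.2 FPKM (-1.70) and at 5.10 to 16.9 in the other knockdowns. The RNA-binding protein gene SERBP1 was at 27.2 against 75.3 FPKM (-1.44), and the lowest other library was at 32.8. The morphogen gene SHH was at 3.11 against 14.6 FPKM (-1.92), also the lowest of 13. ABP1, a diamine oxidase gene, was at 3.39 against 13.1 FPKM (-1.69), beside 3.49 in the next library. LRRTM1, a synaptic adhesion gene, was at 3.97 against 12.6 FPKM (-1.46), with 3.56 in the lowest other library.

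Other large decreases were shared with several knockdowns as well. The glucocorticoid receptor gene NR3C1 was at 1.43 FPKM in siBRCA2 and 6.0 in siControl2 (-1.52), while the other knockdowns ran from 0.889 to 7.11 FPKM with a median of 1.78. The proglucagon gene GCG (-1.73) and the growth factor gene MDK (-1.47) were at -0.011 and -0.42 relative to the median of the other knockdowns. The Notch ligand gene JAG1 was at 18.8 against 60.1 FPKM (-1.62), and similar values were found in siFOXA1 (18.4) and siBRCA1 (15.7). The protocadherin genes PCDH11X and PCDH11Y, near-identical copies on the sex chromosomes, summed to 36.4 against 102 FPKM (-1.46), and the other knockdowns ran from 31.4 to 106.

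At least 0.5 log2 units above all other 12 libraries were 12 genes (0.076%) and at least 0.5 below them 27 genes (0.171%). The sum, 39, compares with 17 in siSMARCA4, the lowest of the other knockdowns, and 574 in siFOXA1, the highest, and with 23 in siControl2. With a usable symbol there were 3 above and 15 below. CASP8, the initiator caspase of death receptor signalling, was at 5.73 FPKM in siBRCA2, 10.7 in siControl2 and 10.7 to 16.3 in the other knockdowns, a difference of -0.80 from the nearest library. Relative to the nearest library, the matrix protein gene MXRA8 was at -0.72, the collagen mRNA-binding protein gene LARP6 at -0.70 and the sialic acid esterase gene SIAE at -0.65. The phosphatase inhibitor gene PPP1R14C was at -0.62, TDP1, which removes trapped topoisomerase from DNA, at -0.61, the phosphatase gene PTP4A3 at -0.61 and the myosin light chain gene MYL5 at -0.60. IDH1, the cytosolic isocitrate dehydrogenase gene, was named after its values were seen and was at 119.6 against 182 FPKM, with 174 in the next library.

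Above all others lay MAP3K5, a stress-activated kinase gene (12.8 against 6.86 FPKM), the inositol monophosphatase gene IMPA2 (30.5 against 21.7), the interleukin receptor gene IL6R (23.9 against 11.4), the oxidase gene ENOX2 (12.2 against 7.67), the amino acid transporter gene SLC7A7 (1.58 against 0.300) and GPX2, a glutathione peroxidase gene (1.51 against 0.407). H3F3A, a histone H3.3 gene with many processed copies, was at 23.8 against 11.1 FPKM. Only GPX2 (0.55) and H3F3A (0.52) of these passed the margin of 0.5. The remaining usable entry above that margin was BSCL2 (0.62), which shares reads, as described below. MAP3K5, IMPA2, SLC7A7, IL6R and ENOX2 lay 0.43 to 0.498 above the nearest library. The collagenase gene MMP13 was at 7.65 against 1.09 FPKM (2.05) and was exceeded in another knockdown, at 9.18.

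**Figure D5:**
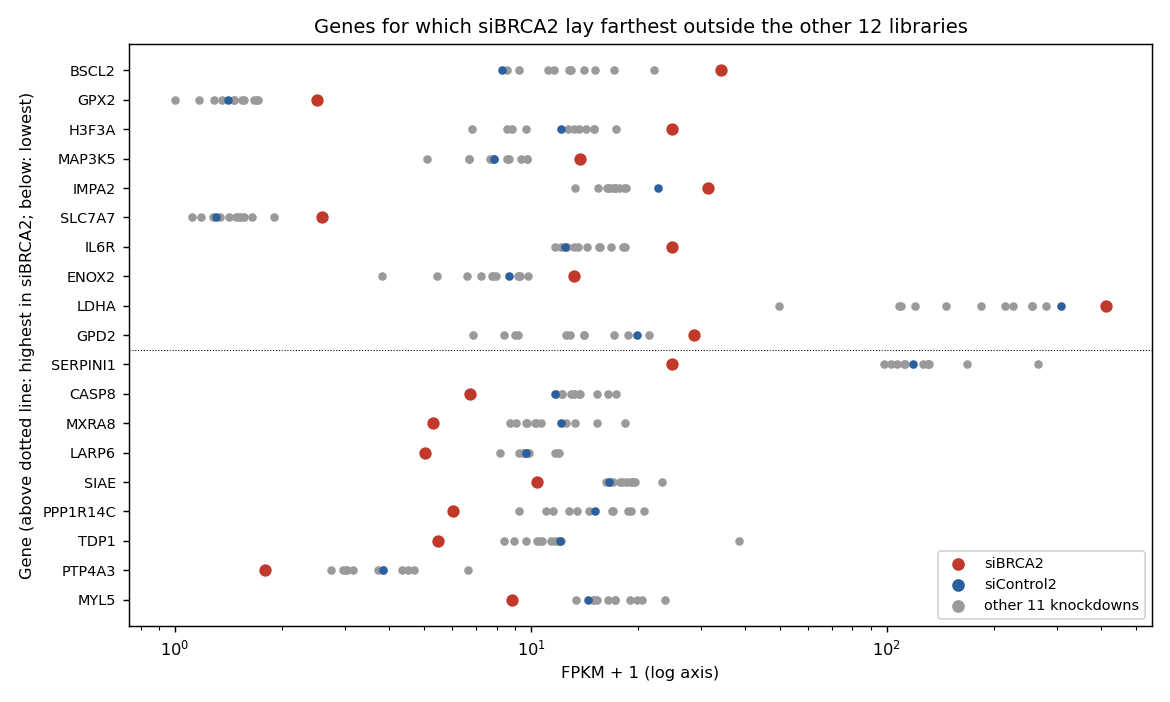
FPKM + 1 on a log axis in each of the 13 libraries (points) for the genes for which siBRCA2 lay farthest above (upper group) or below (lower group) all other libraries. SERPINI1 is at 23.9 FPKM in siBRCA2 and at 97.4 or more elsewhere, and LDHA is at 411 FPKM in siBRCA2 and at 306 or less elsewhere.

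Some large differences come from entries that share reads, or from entries listed at or near 0 in some libraries. No direction is drawn from either. BSCL2, the seipin gene, was at 33.1 FPKM in siBRCA2 and 7.30 in siControl2 (2.04), while the read-through entry HNRNPUL2-BSCL2, which contains it, was at 20.5 against 40.3 FPKM (-0.94). Their sum was 53.6 against 47.6 FPKM, a difference of 0.17. GAGE7 differed by 3.55 and GAGE6 by -2.08, but the 18 GAGE entries, near-identical cancer-testis genes, summed to 899.9 against 829 FPKM (0.12). The ribosomal protein gene RPL21, with many near-identical copies, was at 20.1 FPKM against 0.00156 and was below 0.0001 FPKM in 1 other library. The vault RNA gene VTRNA1-1, of a class that the small RNA symbols searched for did not cover, was listed at 0 in siControl2. It reached 11.7 FPKM in siBRCA2, with values from 0 to 13 in the other knockdowns. SERF1A (-1.81), BAGE5 (-1.62) and PRR4 (-1.51) were also listed under 0.01 FPKM in at least 1 other knockdown.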

How the data were processed

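RNA from LNCaP-abl cells was sequenced in 13 siRNA libraries. Per the submitters' processing notes, the authors used TopHat, Cufflinks and build hg19. Their versions are not given in the sources used here. Deposited log2 values are log2(FPKM + 0.1) on nearly the same distribution in every library, so the authors' values carry no depth, and differences are relative to the other genes of a library. The offset of 0.1 was read from the lowest deposited log2 value. FPKM was recovered as 2 to the power of the value, less 0.1, with a pseudocount of 1 for differences. Entries with small RNA symbols (759 of 22613) and genes with a mean below 0.5 FPKM over 13 libraries were left out, which kept 15780. With 1 library per group, no test was made, and genes are described by fold (2-fold, or 1.5-fold) and by their place among the other libraries. Named genes were the 15 largest differences in each direction, the 10 farthest above and below all other libraries, with a usable symbol and at least 1 FPKM in the higher library, members of written lists, and those said to be chosen later. The comparison, the lists and the rules were chosen with earlier results of these data known. Promoters are those of the RefSeq table on GRCh38.p14, and no hg19 annotation was used. Scripts (Python 3.11.15, pandas 2.3.3, numpy 2.4.6) were tested on simulated data. Alternatives changed the pseudocount, the filters and the reference. A few genes are not reported here.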

Additional observations from a re-analysis of the deposited data

Results flagged for a closer look

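The entries for small RNAs, which stayed out of the comparison, also differed from siControl2. Of 652 such entries with a mean of at least 0.5 FPKM, 116 were at least 2-fold higher in siBRCA2 than in siControl2 and 103 were at least 2-fold lower. This was picked out as a signal in entries that the comparison does not use. The other 11 knockdowns had 101 to 170 such entries 2-fold higher, so siBRCA2 lay within their range.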

How the results depend on the processing

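Without the filter on low values, with differences centred on their median over all genes, or after quantile normalization, no reported direction turned and no count moved by over 1.5 times. These settings could change little here, so this outcome says little about robustness. Sorted deposited log2 values already lay at most 0.056 apart over the 13 libraries, and the median difference over all genes was 0.0096. Removal of the filter does not alter the values of a gene. Directions depended most on the reference. With the median of the other 11 knockdowns, the same median without siFOXA1 and siFOXM1, or without siMALAT1, in place of siControl2, some differences turned, and values below follow that order. BRCA2 itself differed by 0.27, 0.19 and 0.27. List medians became 0.83, 0.77 and 0.91 for G1/S genes, 1.12, 0.97 and 1.25 for G2/M genes, -0.017, -0.089 and -0.063 for p53 targets and 0.21, 0.17 and 0.20 for the siRNA targets of the series. RNASEH2A differed by 0.63, 0.63 and 0.74. FIGNL1 differed by 0.56, 0.36 and 0.65. H2AFX differed by 0.40, 0.37 and 0.48. MCM5 differed by 0.76, 0.75 and 0.94. MCM3 differed by 0.64, 0.64 and 0.70. UHRF1 differed by 1.04, 0.97 and 1.08. RRM2 differed by 1.10, 0.92 and 1.04. CENPF differed by 1.08, 0.84 and 1.11. CCNB1 differed by 0.72, 0.63 and 1.05. CDC20 differed by 1.01, 0.90 and 1.20. CDKN1A differed by -0.052, -0.15 and -0.10. BBC3 differed by -0.016, -0.12 and -0.071. BCL2 differed by 0.11, 0.11 and 0.11. BAGE5 differed by 0.016, 0.016 and 0.014. Without siFOXA1 and siFOXM1, FAS differed by 0.013. Without siMALAT1, ATF3, GCG and SERF1A differed by -0.018, 0.23 and 0.17. The cause was not tested. The genes at least 2-fold lower numbered 78 against the median of the other 11 and 73 without siMALAT1 in that median, where the genes at least 2-fold higher numbered 187. With a pseudocount of 0.1 there were 317 genes at least 2-fold higher, 407 genes at least 2-fold lower, 1007 genes at least 1.5-fold higher, 1268 genes at least 1.5-fold lower and 133 genes outside all other 12 libraries by 0.5. With small RNA entries kept, 237 were 2-fold higher and 223 lower. Of genes with a usable symbol, 69 and 62 were 2-fold higher and lower, 301 and 412 were 1.5-fold higher and lower, and 18 were outside, since fewer genes entered. Without siFOXA1 and siFOXM1, 91 genes were outside, since fewer libraries bound them. The settings without siMALAT1, with usable symbols and with plain FPKM ratios were chosen after seeing the data. BRCA2 had no value with a minimum mean of 2 FPKM. No paired analysis was possible because each group has 1 library, and no replicate could be left out. Depth is unknown, so counting error could not be given.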
